A study of Homo sapiens with 72 samples.

Results

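Cytosolic ribosomal protein genes encode the proteins that, with ribosomal RNA, make up the small and the large subunit of the ribosome. They were taken from a table of RNA counts for 19324 genes by their symbols: every RPL or RPS gene with a plain number, the suffixes A, X or L allowed, together with RPSA, RPLP0, RPLP1 and RPLP2. The rule found 84 genes, of which 46 encode core proteins of the large subunit, 31 encode core proteins of the small subunit and 7 encode paralogues of core proteins (RPL3L, RPL7L1, RPL10L, RPL22L1, RPL26L1, RPL39L and RPS27L). RPL10L had 0 to 2 counts in any library and was not tested, and RPL3L had a median of 13 counts with a range of 0 to 128, so that 83 of the 84 genes entered the tests and the folds of RPL3L carry no weight. The study followed polyadenylated RNA after ultraviolet (UV) irradiation in 4 lines of HEK293 Flp-In T-REx, which are human cells of embryonic kidney origin with a single integration site for transgenes. CSB_KO cells lack CSB, the product of ERCC6, which recognises RNA polymerase II stalled at DNA damage in transcription-coupled repair; STK19_KO1 and STK19_KO2 are separate knockout clones of STK19, a further factor of that repair route; WT cells are unedited. Each line was harvested without inhibitor at 0 h and 3 h, then at 4 h and 20 h either in DMSO or in ATRi, the inhibitor VE-821 at 3 µM in DMSO, which blocks the DNA damage kinase ATR and was added after 3 h of recovery. That gives 24 groups of 3 libraries, 72 in all. All later groups were irradiated, so that time in culture and UV cannot be told apart. The 4 h and 20 h groups held DMSO and the 0 h groups are labelled with none. In comparisons of these times with 0 h, DMSO cannot be told apart from time and UV either. The labels used here name no UV dose, and they count the later times from irradiation in some fields and from inhibitor addition in others. CSB_KO is 1 clone and WT 1 line, so that clone and knockout cannot be told apart there.

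A ribosome takes up most core proteins in equal number and the stalk proteins RPLP1 and RPLP2 in more copies, and in growing cells their genes are among the most highly transcribed of the genome, short, and expressed in proportion to each other. Vertebrate ribosomal protein mRNAs are known for a terminal oligopyrimidine (TOP) tract, a cytosine followed by a run of pyrimidines at the very start of the RNA, through which their translation is tied to the kinase mTOR. Many of the genes also carry small nucleolar RNAs in their introns, and UV lesions block RNA polymerase II within the transcribed strand, so that a gene's chance of holding a lesion grows with its length.

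The starts of the genes on which the comparisons turn are shown as 60 bases, from 40 before to 20 after and including the first transcribed base, on the gene's own strand, 5′ to 3′, from the RefSeq promoter table for GRCh38.p14; capitals mark the unbroken pyrimidine run that begins with C at the start base, and a window without such a run has no capitals. The first 5 have the run and are shown for the large rise at 20 h in CSB_KO cells (RPLP1 and RPS12), the difference between lines at 0 h (RPL13), the fall with ATRi (RPL7A) and the difference at 3 h (RPL39).
RPLP1: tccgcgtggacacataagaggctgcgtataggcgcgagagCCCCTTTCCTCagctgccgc
RPS12: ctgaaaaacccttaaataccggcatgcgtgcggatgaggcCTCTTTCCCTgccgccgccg
RPL13: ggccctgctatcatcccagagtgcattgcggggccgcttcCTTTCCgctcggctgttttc
RPL7A: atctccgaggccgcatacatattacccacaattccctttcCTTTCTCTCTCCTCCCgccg
RPL39: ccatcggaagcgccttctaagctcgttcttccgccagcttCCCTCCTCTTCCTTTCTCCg
The other 4 are RPL22L1, a paralogue with a run, and RPL10A, RPS29 and RPL7L1, which have none at the listed start and moved in different directions. In RPL10A a stretch of pyrimidines lies a few bases after the listed start.
RPL22L1: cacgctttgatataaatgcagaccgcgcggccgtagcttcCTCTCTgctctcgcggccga
RPL10A: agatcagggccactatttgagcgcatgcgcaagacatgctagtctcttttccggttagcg
RPS29: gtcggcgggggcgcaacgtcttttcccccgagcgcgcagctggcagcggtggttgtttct
RPL7L1: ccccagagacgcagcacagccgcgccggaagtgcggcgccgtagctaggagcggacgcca
The windows lie at chr15:69452778-69452837 on the plus strand for RPLP1, chr6:132814529-132814588 plus for RPS12, chr16:89560642-89560701 plus for RPL13, chr9:133348178-133348237 plus for RPL7A and chrX:119791611-119791670 minus for RPL39. For the others they lie at chr3:170870176-170870235 minus for RPL22L1, chr6:35468361-35468420 plus for RPL10A, chr14:49598691-49598750 minus for RPS29 and chr6:42879576-42879635 plus for RPL7L1. In each, the last 20 bases are the beginning of the first exon and 5′ untranslated region.

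A start of C followed by 4 or more pyrimidines was listed for 46 of the 62 core genes with a promoter entry (74.2%), against 7.05% of all tested genes, 6.94% of genes of like span and 5.14% of all genes in the promoter table. Among the 5 paralogues with an entry only RPL22L1 had it. Over 250 bases before and 50 after the start, on both strands, CCGGAAG stood in 35.5% of the core genes (20.2% of tested genes, 12.2% of all genes in the table), AAGATGG in 12.9% (8.66% and 7.11%) and TATAAA in 8.06% (9.53% and 14.0%); CCGGAAG and AAGATGG can share bases. These are matches of letters and not measured sites. Small nucleolar RNAs lay within 28 of the 84 genes (33.3%, 60 RNAs in all), against 1.01% of other genes of like span. The genes spanned 772 to 80356 bp with a median of 5548 bp. Other genes of like span are the 5467 tested genes between 2815 and 22996 bp, the 10th and 90th percentiles of the ribosomal protein genes, and genes of like span and level are the 131 of them with a mean log2 CPM (counts per 1000000 counts of the library) of at least 8.77.

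Libraries held 36503670 to 212861875 counts, with a median of 56316344. ERCC6 averaged 6.97 ± 0.611 CPM in CSB_KO cells and 23.5 ± 0.473 CPM in WT cells at 0 h (SD, n = 3 each), while STK19 averaged 17.5 ± 0.587 CPM in STK19_KO1 and 17.1 ± 0.862 CPM in STK19_KO2 against 19.0 ± 1.07 CPM in WT, a difference that did not pass the test in either clone (edgeR adjusted p = 0.187 and 0.0882), so that RNA abundance does not check that label. In 5 libraries the counts stood apart from the other replicates of their group, namely WT replicate 1 at 0 h, 3 h and 4 h in DMSO, STK19_KO1 replicate 3 at 3 h and STK19_KO1 replicate 1 at 4 h in ATRi; the chi-square per gene between WT replicate 1 and the others at 3 h was 171 and 177, against 4.79 between the others. The labels name no batch, and they do not say whether replicates were separate cultures, so that p-values measure the spread between these libraries. Values are TMM-scaled CPM and every change is relative to the rest of the polyadenylated RNA, as no external standard was given; in bulk RNA, fewer cells and less RNA per cell cannot be told apart. Tests are edgeR quasi-likelihood tests with Benjamini-Hochberg adjustment over 15470 genes, and "rose" and "fell" are used for adjusted p under 0.05. RNA from 77 of the genes could be shared with 1145 named pseudogenes, and RPL17, RPL36A and RPS10 have a read-through gene beside them, so that their own values are uncertain.

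Among the ribosomal protein genes tested, core genes had the highest levels per length at 0 h and 3 of the paralogues the lowest. In WT cells RPLP1, a protein of the ribosomal stalk, was highest with 3029 ± 179 CPM per kb of exonic length (SD, n = 3), followed by RPS18 with 2462 ± 35.6 and RPS16 with 2448 ± 166, both of the small subunit. RPS18 and RPS16 did not differ from each other beyond their spread. The median gene had 915 CPM per kb. At the other end stood RPL39L with 13.03 ± 0.642, RPL22L1 with 7.18 ± 0.788 and RPL3L with 0.0640 ± 0.0419 CPM per kb, which are separated from each other beyond their spread. RPL7L1, known as a factor of large subunit assembly, was the most abundant paralogue with 125 ± 4.38 CPM per kb.

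The ribosomal protein genes together took 7.07 ± 0.0690% of all counts in CSB_KO cells at the start, then 9.47 ± 0.0698%, 9.53 ± 0.242% and 13.1 ± 0.175% at 3, 4 and 20 h without ATRi (SD, n = 3 each). In WT cells the shares at these times were 7.24 ± 0.0419%, 10.1 ± 1.03%, 9.82 ± 0.249% and 7.72 ± 0.111%. The share thus stood higher at 20 h than at any earlier time in CSB_KO cells and was back near its 0 h value in WT cells. In STK19_KO1 cells it was 7.68 ± 0.0566, 10.4 ± 1.23, 9.61 ± 0.0716 and 10.04 ± 0.318% at the 4 times, and in STK19_KO2 cells 7.68 ± 0.132, 9.23 ± 0.184, 9.32 ± 0.176 and 9.46 ± 0.153%, a plateau from 3 h on. The wide spread of WT and STK19_KO1 at 3 h comes from the library that stands apart in each, which held 11.3% in WT and 11.8% in STK19_KO1.

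**Figure D1:**
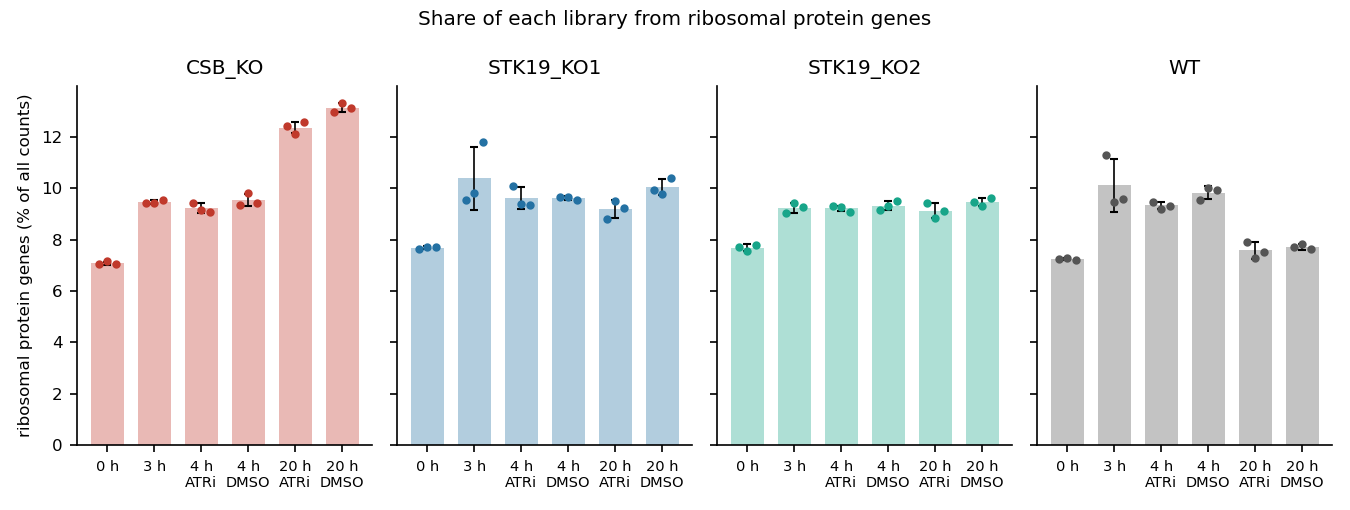
Share of all counts held by the 84 ribosomal protein genes, in percent, in each of the 4 lines by time and treatment (bars: mean of 3 libraries; error bars: SD; points: libraries; at 4 h and 20 h ATRi stands left of DMSO). CSB_KO cells reach 13.1% at 20 h in DMSO, while WT cells are at 7.72%.

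Before UV some of the genes differed between lines, in both directions. In CSB_KO cells 15 of the 83 genes were higher and 22 lower than in WT cells, where 19.1% and 15.7% of all tested genes were higher and lower; in STK19_KO1 23 were higher and 4 lower (29.5% and 19.2% of all genes), and in STK19_KO2 23 and 6 (26.6% and 20.7%). The median log2 differences of the genes were −0.14, 0.03 and 0.01. In all 3 knockout lines 11 genes were higher, as were 11.1% of all genes; among them were RPS28, RPL36, RPL13A, RPL28, RPL26, RPS2, RPS15, RPL18 and RPS19. The 3 comparisons share their WT libraries. On library totals STK19_KO1 had 23 higher and 14 lower, and on mitochondrial mRNA scaling 4 were higher and 1 lower in CSB_KO, and 23 and 1 in each STK19 knockout.

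The largest difference was that of RPL13, a large subunit protein. RPL13 had 1498, 1544 and 1462 CPM in CSB_KO cells, 2584, 2808 and 2805 CPM in STK19_KO1, 2486, 2646 and 2578 CPM in STK19_KO2, and 1078, 1462 and 1432 CPM in WT cells. The first WT value lay well below the others, and WT replicate 1 at 0 h is among the libraries that stand apart. Every STK19 knockout library lay above every WT library, with log2 differences of 1.04 ± 0.09 in STK19_KO1 and 0.96 ± 0.09 in STK19_KO2 (± SE; edgeR adjusted p = 1.29e-14 and 3.01e-13), whereas in CSB_KO the lowest library lay less than 1 CPM above the highest WT library and the difference did not pass the test (0.18 ± 0.09, adjusted p = 0.12). RPS28, a small subunit protein, was higher by 0.44, 0.68 and 0.67 in CSB_KO, STK19_KO1 and STK19_KO2, and RPL36, of the large subunit, by 0.39, 0.65 and 0.61. RPL36 had 604, 619 and 602 CPM in CSB_KO cells and 427, 477 and 484 CPM in WT cells, with no overlap. In other genes the clones stood apart from each other. RPSA, the small subunit protein also known as the laminin receptor, was 0.66 higher in STK19_KO1 (adjusted p = 2.28e-14) with −0.14 and 0.04 in the other knockouts, RPL27 was at −0.69 in STK19_KO1 and −0.22 and −0.04 in CSB_KO and STK19_KO2, and RPS12 was at −0.58 in STK19_KO2 and −0.27 and −0.02 in CSB_KO and STK19_KO1.

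At 3 h nearly every ribosomal protein gene rose in every line. In CSB_KO cells 81 of the 83 genes rose and 1 fell (32.0% and 29.3% of all tested genes), in STK19_KO1 81 rose and none fell (29.9% and 30.6%), in STK19_KO2 79 rose and none fell (29.1% and 28.5%), and in WT 82 rose and none fell (33.6% and 28.8%); 79 rose in all 4 lines, as did 18.5% of all genes (43 genes without replicate 2). On mitochondrial mRNA scaling none rose in all 4 lines. There, 81 rose and none fell in CSB_KO, 2 rose and none fell in STK19_KO1, none passed in STK19_KO2, and 2 rose and 1 fell in WT. The median log2 change was 0.56 in CSB_KO, 0.52 in STK19_KO1, 0.29 in STK19_KO2, where it is −0.08 with scaling on mitochondrial mRNAs, and 0.72 in WT. The median tested gene was at 0.06, 0.03, 0.05 and 0.06. Other genes of like span had medians of 0.31, 0.32, 0.29 and 0.33, and those of like span and level 0.40, 0.32, 0.24 and 0.47. In STK19_KO2 cells the ribosomal protein genes were thus at the median of genes of like span. Every 3 h library was above every 0 h library for 81, 82, 82 and 81 genes, where this held for 35.8%, 31.2%, 36.5% and 26.5% of all genes. Without the libraries that stand apart the medians were 0.36 in STK19_KO1 and 0.58 in WT.

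RPL22L1, a paralogue of the large subunit protein RPL22, had the largest mean change at 3 h. It had 14.4, 11.7 and 13.5 CPM at 3 h against 8.70, 8.72 and 7.14 CPM at 0 h in CSB_KO cells, and 29.3, 17.3 and 16.2 CPM at 3 h against 10.3, 8.45 and 10.3 CPM at 0 h in WT cells. The times did not overlap in either line, and the log2 changes were 0.68, 0.63, 0.70 and 1.10 in CSB_KO, STK19_KO1, STK19_KO2 and WT (0.81 in WT without the libraries that stand apart). RPS20, of the small subunit, had 802, 471 and 468 CPM at 3 h against 327, 299.9 and 295 CPM at 0 h in WT cells, again without overlap but with the first library far above the others; its log2 changes were 0.60, 0.62, 0.42 and 0.92. RPS29, also of the small subunit, rose by 0.68, 0.64, 0.43 and 0.76.

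The genes with the smallest rises were RPL4 (0.43, 0.30, 0.27 and 0.66) and RPL3 (0.45, 0.38, 0.22 and 0.50), large subunit proteins with long coding sequences; on the mitochondrial scaling RPL4 is at −0.11 and RPL3 at −0.15 in STK19_KO2, and RPL3 at −0.08 in WT. RPL7L1 had 483, 461 and 439 CPM at 3 h against 499.9, 502 and 502 CPM at 0 h in CSB_KO cells, with a log2 change of −0.12 ± 0.04 (edgeR adjusted p = 0.00348), and its changes were 0.06, 0.07 and 0.13 in STK19_KO1, STK19_KO2 and WT. Besides RPL7L1 and RPL3L, RPL34 and RPL38 fell short of the test in STK19_KO2 only (0.22 each, adjusted p = 0.0518 and 0.0797). RPL5 and RPL11, which bind the p53 regulator MDM2 when outside the ribosome, rose by 0.52, 0.45, 0.26 and 0.80 and by 0.47, 0.53, 0.25 and 0.60. RPS6, the small subunit protein phosphorylated by S6 kinase, rose by 0.53, 0.46, 0.29 and 0.77, and RPS3, which lies at the mRNA entry of the small subunit, by 0.51, 0.46, 0.30 and 0.62.

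The 4 h DMSO libraries gave nearly the same picture. In CSB_KO 81 genes rose and 1 fell relative to 0 h, and 81, 78 and 81 rose and none fell in STK19_KO1, STK19_KO2 and WT, where 33.6%, 27.9%, 31.6% and 35.0% of all genes rose and 30.2%, 30.0%, 29.8% and 31.3% fell; 77 rose in all 4 lines (18.9% of all genes). On mitochondrial scaling 81 rose in CSB_KO, while none rose in STK19_KO1, STK19_KO2 or WT and 0, 1 and 1 fell there. The medians were 0.56, 0.35, 0.32 and 0.65, and those of genes of like span 0.35, 0.27, 0.34 and 0.40; scaled on mitochondrial mRNAs they are −0.14 in STK19_KO2 and −0.07 in WT.

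At 20 h in DMSO the lines parted. In CSB_KO cells 80 genes rose and 1 fell (38.3% and 40.5% of all genes) with a median log2 change of 1.19; every one of the 77 core genes rose, by 0.36 to 1.56. In STK19_KO1 78 rose and 1 fell (32.1% and 37.0%; median 0.39), and in STK19_KO2 71 rose and 1 fell (33.8% and 37.8%; median 0.37). In WT cells 11 rose and 4 fell (30.0% and 25.4%), and the median was 0.01. Without the libraries that stand apart 20 rose in WT, and without replicate 2 only 6 genes passed there in either direction; on mitochondrial scaling 78 rose and none fell (median 0.59), and on library totals 25 rose and 3 fell. The median tested gene was at −0.01, −0.02, −0.02 and 0.05 in the 4 lines, genes of like span at 0.57, 0.29, 0.34 and 0.19, and genes of like span and level at 0.69, 0.13, 0.27 and −0.10. In all 3 knockout lines 70 genes rose, as did 23.7% of all genes; on mitochondrial scaling 9 did, and in STK19_KO2 9 rose and 2 fell. In all 4 lines 10 rose (15.3% of all genes), among them RPLP0, RPLP1, RPL12, RPL13A, RPL30, RPS12, RPS18, RPS19 and RPS27L. Every 20 h library was above every 0 h library for 80, 79, 77 and 18 genes (39.1%, 35.6%, 37.9% and 32.4% of all genes), and in WT cells the times overlapped for 53.

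RPLP1 had among the highest mean changes at 20 h and was 1 of the 11 genes that rose in WT. It had 3324, 3583 and 3519 CPM at 20 h in DMSO against 1211, 1239 and 1176 CPM at 0 h in CSB_KO cells. In STK19_KO1 it had 2178, 1996 and 2233 CPM against 1379, 1413 and 1407 CPM, in STK19_KO2 2046, 2069 and 2142 CPM against 1315, 1330 and 1430 CPM, and in WT 1526, 1571 and 1540 CPM against 1263, 1422 and 1358 CPM. No line showed overlap, and the CSB_KO libraries at 20 h were all above 3000 CPM. The log2 changes were 1.52 ± 0.07, 0.61 ± 0.07, 0.62 ± 0.07 and 0.20 ± 0.07 (± SE; edgeR adjusted p = 1.18e-28, 3.68e-12, 1.96e-12 and 0.00899). RPL12, which binds beside the stalk, changed by 1.48, 0.62, 0.64 and 0.20, and RPS19, a small subunit protein known for its mutations in Diamond-Blackfan anaemia, by 1.53, 0.58, 0.56 and 0.23. RPLP0, the anchor of the stalk, rose by 1.38, 0.52, 0.57 and 0.19.

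Other core genes rose in the knockouts and not detectably in WT. RPL5 had 2638, 2742 and 2602 CPM at 20 h in DMSO against 1269, 1277 and 1205 CPM at 0 h in CSB_KO cells and 1468, 1403 and 1393 CPM against 1545, 1359 and 1393 CPM in WT cells. The times were wide apart in CSB_KO and overlapped in WT, with log2 changes of 1.09, 0.24 and 0.19 in CSB_KO, STK19_KO1 and STK19_KO2 and −0.01 in WT (adjusted p = 0.916). RPL11 was at 1.09, 0.16, 0.16 and −0.04, RPS6 at 1.18, 0.30, 0.27 and 0.00, RPSA at 1.32, 0.38, 0.29 and 0.10, and RPS3 at 1.19, 0.34, 0.37 and 0.07. The 4 genes that fell in WT cells were RPS7 (−0.18), RPL23 (−0.29), RPL7A (−0.29) and RPL7L1 (−0.36), of which RPS7 and RPL23 are, like RPL5 and RPL11, known to bind MDM2. On mitochondrial scaling none of the ribosomal protein genes fell in WT. RPL7A also had the smallest rise of the core genes in CSB_KO cells, 0.36 ± 0.06.

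The paralogues differed among themselves. RPS27L, a p53 target paralogous to RPS27, rose in all 4 lines, by 1.00, 0.58, 0.45 and 0.39. It had 93.5, 86.3 and 88.3 CPM at 20 h against 43.5, 44.5 and 46.4 CPM at 0 h in CSB_KO cells, and 63.9, 63.2 and 58.4 CPM against 52.7, 43.7 and 45.4 CPM in WT cells, with no overlap in either line. RPL39L rose in CSB_KO (0.63) and WT (0.34), with −0.01 and −0.15 in STK19_KO1 and STK19_KO2. RPL26L1 rose in CSB_KO (0.48; −0.05 with mitochondrial scaling) and fell in STK19_KO1 and STK19_KO2 (−0.26 and −0.42), with −0.05 in WT (0.53 with mitochondrial scaling). RPL7L1 fell in CSB_KO and WT (−0.23 and −0.36) and rose in STK19_KO1 and STK19_KO2 (0.12 and 0.29). On mitochondrial scaling no ribosomal protein gene fell in WT, RPL7L1 included. RPL22L1 was back near its 0 h level, at 0.15, −0.24, −0.13 and −0.11, none of which passed the test.

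**Figure D2:**
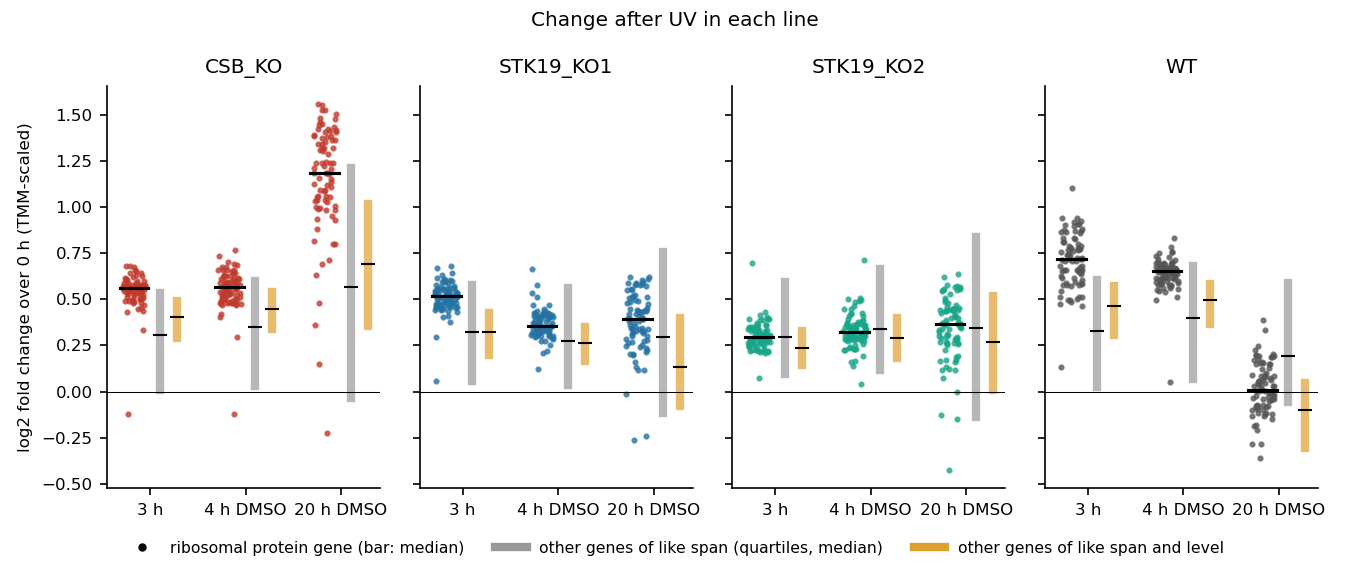
Log2 fold change over 0 h at 3 h, 4 h in DMSO and 20 h in DMSO in each line, for each ribosomal protein gene (points, RPL3L left out; black bar: median), for other genes of like span (grey: quartiles and median) and for those of like span and level (orange). At 20 h the median is 1.19 in CSB_KO and 0.01 in WT; on mitochondrial mRNA scaling the medians of STK19_KO2 at 3 h and 4 h and of WT at 4 h turn negative (−0.08, −0.14 and −0.07).

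**Figure D3:**
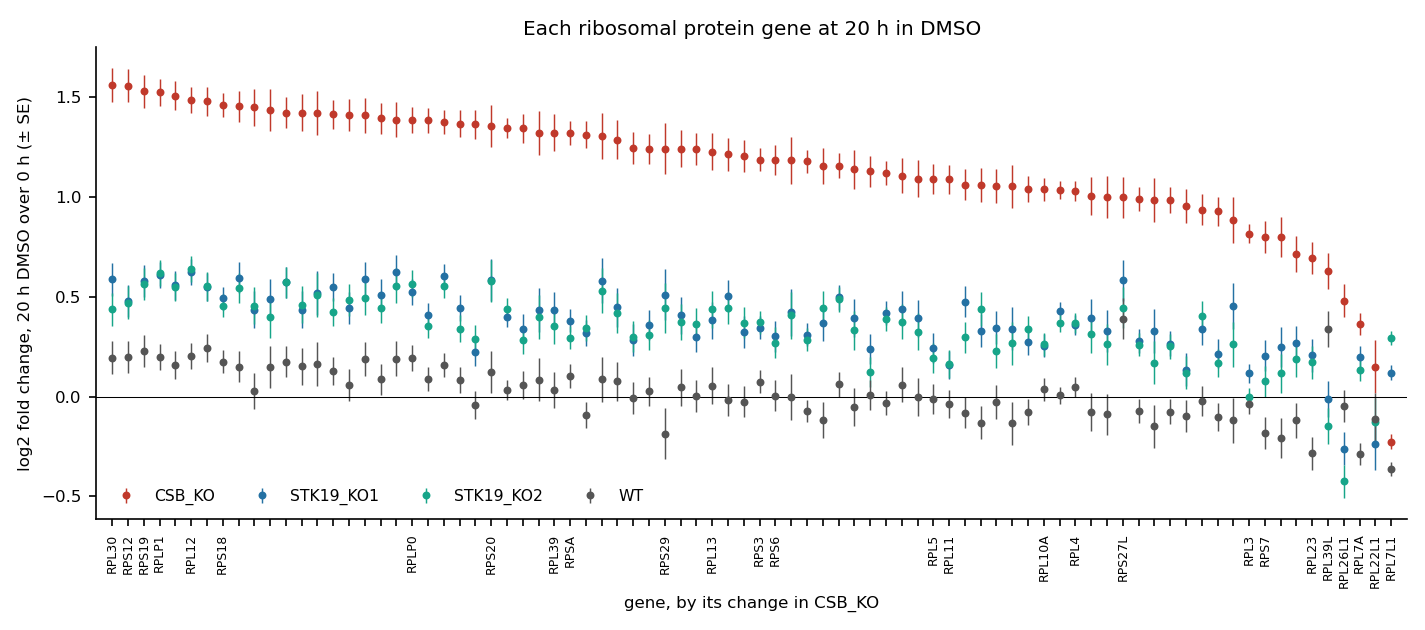
Log2 fold change at 20 h in DMSO over 0 h of each ribosomal protein gene (RPL3L left out) in the 4 lines, with error bars of 1 SE, in the order of the change in CSB_KO; some of the genes described here are labelled. The CSB_KO points lie above those of the other lines for the core genes, and most paralogues gather at the right end. Under mitochondrial scaling many signs change in WT, where 78 genes rose and none fell, against 11 and 4 here. Only some genes were followed singly on that scaling. Of these, RPL26L1 in CSB_KO and WT (−0.05 and 0.53) and RPL22L1 in WT (0.47) changed sign and passed the test on either scale.

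Between 4 h and 20 h in DMSO, the genes rose in CSB_KO and fell in WT on the TMM scale. In CSB_KO 78 genes rose and 2 fell (34.6% and 37.2% of all genes; median 0.65), while in WT none rose and 82 fell (34.1% and 35.5%; median −0.61); on mitochondrial mRNA scaling these medians are −0.24 and 0.68, and the directions turn: none rose and 33 fell in CSB_KO, and 82 rose and none fell in WT. Genes of like span were at 0.25 in CSB_KO and −0.20 in WT, and of the 131 genes of like span and level in WT none rose and 129 fell (median −0.59). In STK19_KO1 13 rose and 9 fell (32.3% and 33.4%) and in STK19_KO2 12 and 6 (31.6% and 34.9%), with medians of 0.02 and 0.04; without the libraries that stand apart 31 and 35 rose. On mitochondrial scaling 45 rose and 2 fell in STK19_KO1 and 25 and 2 in STK19_KO2. On library totals 10 rose and 11 fell in STK19_KO2. RPL7A had 2230, 2181 and 2236 CPM at 20 h in CSB_KO cells and 1467, 1511 and 1477 CPM in WT cells, and its log2 changes from 4 h were −0.12 (adjusted p = 0.0551) in CSB_KO and −0.90 in WT. Only RPL22L1 fell in all 4 lines, with log2 changes of −0.62, −0.90, −0.84 and −0.86 (12.1% of all genes did so).

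Because no external standard was given, the sign of a change in all genes together depends on the scaling. With libraries scaled on the mitochondrial mRNAs in place of TMM, the median of all genes moves by −0.37 in STK19_KO2 and −0.57 in WT at 3 h, and by −0.53 in CSB_KO and 0.57 in WT at 20 h in DMSO. A change of scaling moves all genes of a library nearly alike. The distance of the ribosomal protein genes from the median tested gene is thus kept by construction and is no check. It was 0.66 with TMM and 0.65 with mitochondrial scaling in WT at 3 h. At 20 h in DMSO it was 1.19 and 1.2 in CSB_KO, 0.42 and 0.42 in STK19_KO1, 0.39 and 0.39 in STK19_KO2, and −0.04 and −0.03 in WT. Mitochondrial mRNAs themselves took 3.93% of counts at 20 h in DMSO and 3.34% at 0 h in CSB_KO cells, and 2.35% at 20 h and 3.30% at 0 h in WT cells. The mitochondrial scaling holds the mitochondrial total equal between libraries, so that the change in this share enters the signs by construction. What lies behind the change in share was not tested.

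The difference between knockout and WT cells in the change from 0 h was tested directly. At 20 h in DMSO the change was larger in CSB_KO than in WT for 82 of the 83 genes and smaller for none (30.9% and 36.3% of all genes), with a median difference of 1.195 on the log2 scale, against −0.04 for all genes, 0.36 for genes of like span and 0.83 for those of like span and level. On mitochondrial scaling the median is 0.09 and the change is larger for none and smaller for 5. For the mean of both STK19 knockouts it was larger for 75 genes and smaller for 2 (22.8% and 32.7%), with a median of 0.35, against −0.09, 0.11 and 0.38. On mitochondrial scaling that median is −0.31, and the change is larger for none and smaller for 14. RPS29 had the largest difference outside RPL3L, 1.43 ± 0.18 in CSB_KO and 0.66 ± 0.16 in the STK19 knockouts. RPS29 had 301, 396 and 321 CPM at 20 h in DMSO against 148, 152 and 131 CPM at 0 h in CSB_KO cells, and 156, 155 and 167 CPM against 187, 192 and 165 CPM in WT cells. CSB_KO libraries at 20 h lay above all of their 0 h libraries, while the WT times overlapped.

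At 3 h the rise was smaller than in WT for many genes in the STK19 knockouts and for few in CSB_KO. In CSB_KO it was smaller for 5 of the 83 genes and larger for none, with a median difference of −0.17. These shares are under the 8.30% and 1.48% of all genes. Without the libraries that stand apart the rise was smaller for 3 with a median of −0.02. The count was 0 to 1 with single replicates left out, and on mitochondrial scaling the direction turned, with a larger rise for 39 genes and a smaller one for none (median 0.45). For the STK19 knockouts it was smaller for 57 genes and larger for none (17.1% and 10.1%; median −0.31, against −0.01 for like span and −0.20 for like span and level). That count was 68 without the libraries that stand apart (median −0.25), 12 without replicate 1 and 34 without replicate 2. It was 17 on library totals, and on mitochondrial scaling none passed in either direction. The largest were RPS25 and RPL39, at −0.52 ± 0.12 and −0.50 ± 0.11. RPL39, a protein at the peptide exit, had 785, 829 and 1058 CPM at 3 h in STK19_KO1 and 748, 753 and 783 CPM in STK19_KO2, against 1496, 897 and 1011 CPM in WT cells, so that the STK19_KO1 and WT ranges overlap. At 4 h in DMSO the rise was smaller for 3 genes in CSB_KO, a share again under that of all genes (11.3%). In the STK19 knockouts it was smaller for 59 (14.7%, median −0.30), and it was larger for none in either (5.09% and 11.9%). On mitochondrial scaling it was larger for 82 genes and smaller for none in CSB_KO and none passed in the STK19 knockouts, where on library totals it was smaller for 12 and larger for 1.

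At 4 h few of the genes passed the test for ATRi. None did so in CSB_KO, STK19_KO1 or STK19_KO2 and 1 rose in WT, where 2.70%, 0.776%, 0.194% and 2.03% of all genes rose and 0.278%, 0.129%, 0.0259% and 0.627% fell. At an unadjusted p under 0.05 there were 5, 7, 1 and 23 genes, of which 5, 5, 0 and 21 fell, and DESeq2 called 1, 0, 0 and 1. The median log2 changes were −0.044, 0.0003, −0.040 and −0.122, against −0.005, 0.002, −0.006 and −0.004 for all genes. Every ATRi library was below every DMSO library for 26, 9, 14 and 45 genes (13.8%, 6.66%, 5.21% and 8.62% of all genes). Every one was above for 1, 2, 2 and 2 genes (13.5%, 7.54%, 4.95% and 9.26%). Without the libraries that stand apart 47 genes passed in WT, 4 in CSB_KO and 1 in STK19_KO2, so that the count in WT rests on those libraries, among them replicate 1 in DMSO. The gene that passed was RPL22L1, with 22.3, 22.3 and 22.4 CPM in ATRi against 17.8, 15.7 and 15.5 CPM in DMSO in WT cells. The treatments did not overlap there, and the log2 change was 0.45 ± 0.12 (edgeR adjusted p = 0.0282). The effect at 4 h was not detectably different from WT in CSB_KO or the STK19 knockouts for any of the genes by edgeR, where 2.33% and 0.00646% of all genes were higher and 0.873% and 0% lower; at an unadjusted p under 0.05 there were 2 and 0 genes, and DESeq2 called none. These counts depend on the scaling. On mitochondrial mRNAs 82 genes fell with ATRi at 4 h in CSB_KO and 40 rose in STK19_KO1, while none passed in STK19_KO2 or WT. The effect was then lower in CSB_KO than in WT for 82 genes.

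At 20 h single genes differed between ATRi and DMSO in all lines. In CSB_KO 1 gene was higher and 14 lower in ATRi than in DMSO (14.1% and 17.5% of all genes), in STK19_KO1 4 were higher and 24 lower (31.5% and 30.1%), in STK19_KO2 10 were higher and 10 lower (30.5% and 27.7%), and in WT 18 were higher and 10 lower (30.2% and 33.7%), with medians of −0.11, −0.07, 0.02 and 0.07. These shares are at or under those of all genes. On mitochondrial scaling none rose and 70 fell in CSB_KO, 4 rose and 3 fell in STK19_KO1, 2 rose and 4 fell in STK19_KO2, and 3 rose and 7 fell in WT. On library totals 3 rose and 11 fell in CSB_KO, 7 rose and 17 fell in STK19_KO2 and 7 rose and 22 fell in WT. Without the libraries that stand apart, which are at other times and act through the shared estimate of spread, 46, 42, 33 and 55 genes passed. In all 4 lines 7 genes fell, RPL7A, RPL23, RPS29, RPS15, RPS28, RPL27A and RPL7L1 (8.78% of all genes), and 1 rose, RPL22L1 (8.16%). Without replicate 2 only 1 gene passed in the same direction in all 4 lines, and without replicate 3 only 4 did.

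RPL22L1 gave the largest difference. It had 13, 11.8 and 11.1 CPM in ATRi against 9.58, 8.55 and 9.46 CPM in DMSO in CSB_KO cells, and 29.5, 27.5 and 28.8 CPM against 12.1, 12.5 and 11.4 CPM in STK19_KO1. In STK19_KO2 it had 25.2, 25.7 and 25.2 CPM against 13.3, 12.4 and 13.3 CPM, and in WT 26.9, 23.0 and 24.2 CPM against 9.53, 9.28 and 8.27 CPM. The treatments did not overlap in any line, and the ATRi libraries of CSB_KO lay below those of the other lines. Its log2 changes were 0.38 ± 0.13, 1.252 ± 0.12, 0.97 ± 0.12 and 1.46 ± 0.13 (edgeR adjusted p = 0.0229, 2.51e-13, 1e-09 and 3.11e-15).

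RPL10A, a large subunit protein, rose in 3 lines. It had 1055, 1202 and 1128 CPM in ATRi against 778, 779 and 814 CPM in DMSO in STK19_KO1, 1135, 1105 and 1138 CPM against 756, 751 and 805 CPM in STK19_KO2, and 982, 922 and 972 CPM against 649.5, 622 and 617 CPM in WT. In CSB_KO it had 1254, 1202 and 1265 CPM against 1147, 1157 and 1169 CPM. The treatments did not overlap in any line, but the log2 change of 0.10 in CSB_KO did not pass the test (adjusted p = 0.193), beside 0.51, 0.55 and 0.61 in the others.

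RPL7A, a large subunit protein whose introns hold small nucleolar RNAs, fell in all lines. It had 1513, 1430 and 1465 CPM in ATRi against 2230, 2181 and 2236 CPM in DMSO in CSB_KO cells, and 1005, 897 and 913 CPM against 1467, 1511 and 1477 CPM in WT. In STK19_KO1 it had 1345, 1533 and 1522 CPM against 2176, 2262 and 2320 CPM, and in STK19_KO2 1566, 1477 and 1503 CPM against 1981, 2068 and 2119 CPM. The treatments were wide apart in each line, with log2 changes of −0.59, −0.62, −0.44 and −0.66 (± 0.06 each, SE). RPS29 changed by −0.43, −0.56, −0.30 and −0.38 and RPL23 by −0.33, −0.50, −0.24 and −0.53. RPS15 and RPS28, of the small subunit, changed by −0.31, −0.52, −0.36 and −0.37 and by −0.25, −0.57, −0.21 and −0.30.

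The effect of ATRi at 20 h was lower in CSB_KO than in WT for 25 genes and higher for 1 (26.9% and 24.7% of all genes; median difference −0.19), and 48 were lower without the libraries that stand apart and 14 without replicate 2. In the STK19 knockouts it was lower for 8 and higher for none (20.2% and 20.7%, median −0.11), with 38 lower without those libraries, 5 without replicate 1 and 3 without replicate 3. The share lower in CSB_KO is near that of all genes, and the share in the STK19 knockouts is under it. On library totals the effect was lower for 9 genes and higher for 7 in CSB_KO, and lower for 3 and higher for 2 in the STK19 knockouts. On mitochondrial scaling it was lower for 25 and higher for none in CSB_KO and none passed in the STK19 knockouts. RPL22L1 differed most in CSB_KO, by −1.08 ± 0.18, and RPL12 most in the STK19 knockouts, by −0.32 ± 0.08. The 1 gene with a higher effect in CSB_KO was RPS27L (0.35 ± 0.14, adjusted p = 0.037).

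**Figure D4:**
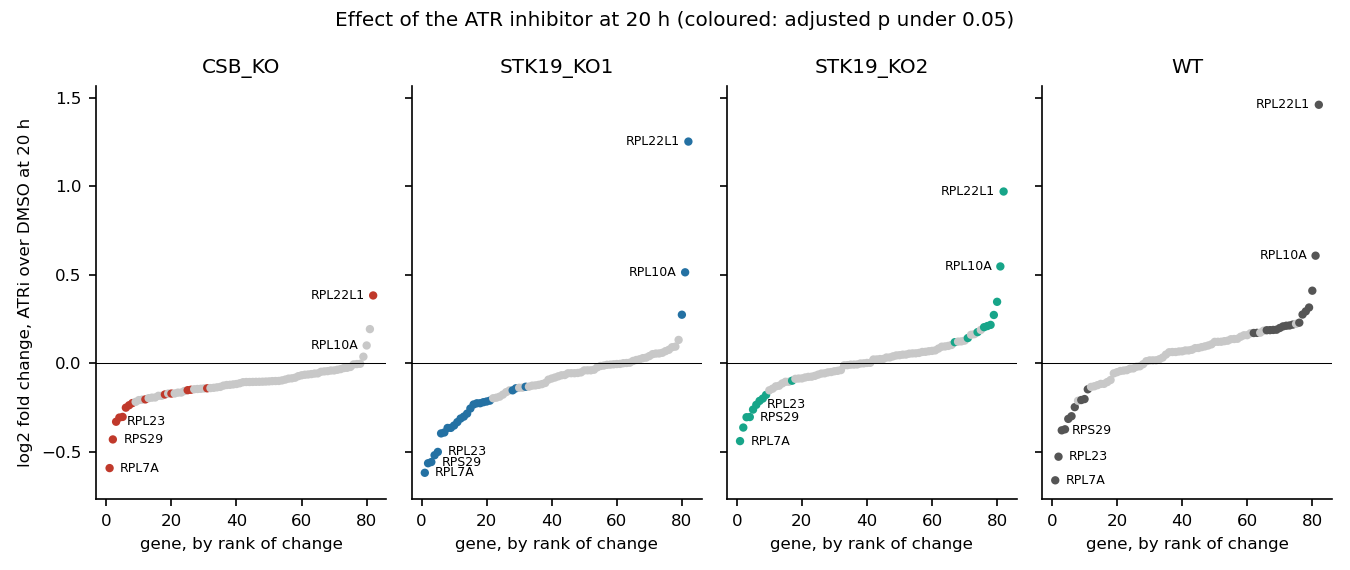
Log2 fold change of each ribosomal protein gene (RPL3L left out) in ATRi over DMSO at 20 h, ranked within each line; genes with an edgeR adjusted p under 0.05 are coloured. RPL22L1 is highest in every line (0.38, 1.252, 0.97 and 1.46) and RPL7A lowest (−0.59, −0.62, −0.44 and −0.66).

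**Figure D5:**
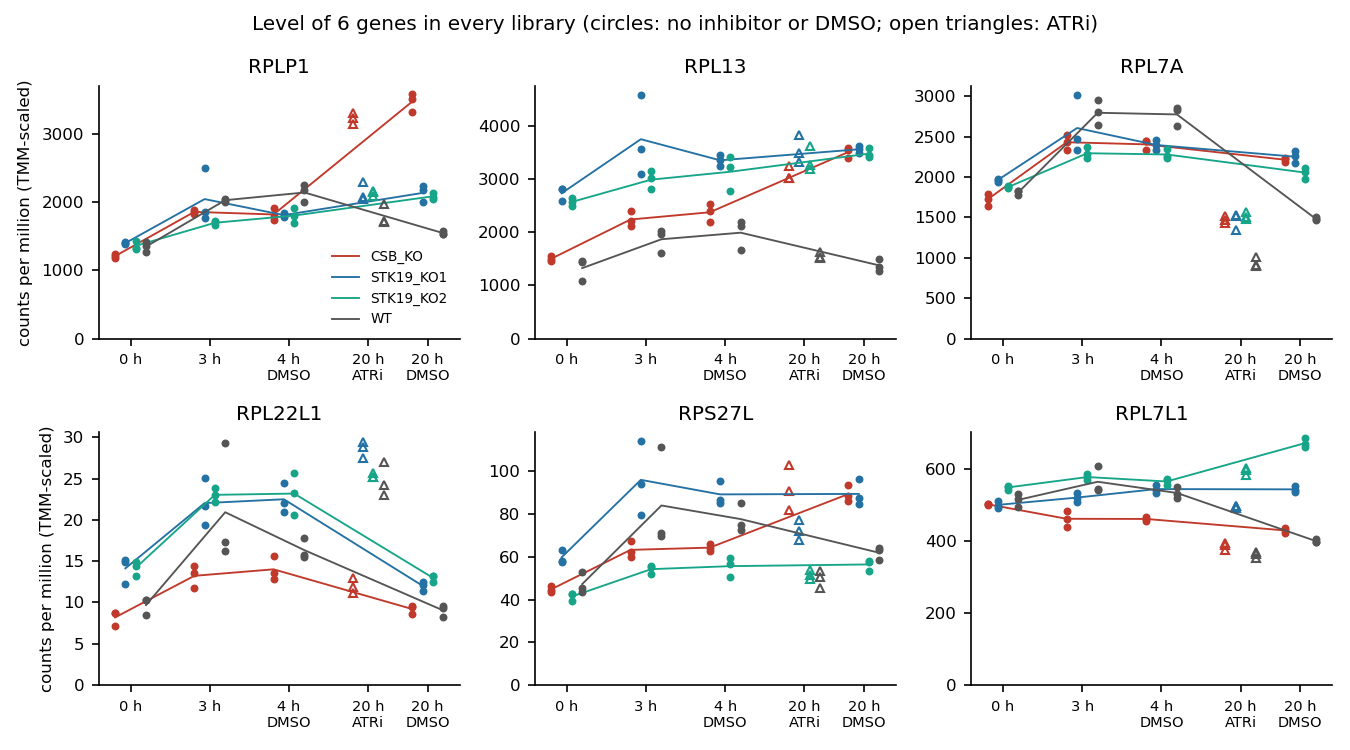
TMM-scaled CPM of 6 genes in every library of the 4 lines (circles: no inhibitor or DMSO; open triangles: ATRi at 20 h; lines join the means without ATRi; ATRi at 4 h is not drawn). RPLP1 reaches over 3000 CPM at 20 h in CSB_KO, RPL13 is high in both STK19 knockouts at 0 h, RPL7A is lower and RPL22L1 higher in ATRi, and RPS27L and RPL7L1 differ between lines at 20 h.

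Genes whose products belong to the ribosome but whose symbols the rule does not match were counted as a list of 4. All 4 rose at 3 h in every line, and at 20 h in DMSO all 4 rose in each knockout, while 2 rose and 2 fell in WT. The counts of this and the next list are on the TMM scale and were not repeated on mitochondrial scaling. That scaling moves the median of all genes by −0.37 in STK19_KO2 at 3 h, where the 4 genes lay at 0.19 to 0.31. In WT at 20 h the move is 0.57, and the 4 genes lay at −0.33 to 0.27. FAU, which encodes a small subunit protein fused to a ubiquitin-like sequence, was at 1.69, 0.69, 0.65 and 0.27 at 20 h. Of 19 translation factors and other known TOP mRNAs 18, 15, 11 and 18 rose at 3 h in CSB_KO, STK19_KO1, STK19_KO2 and WT and 1, 1, 1 and 0 fell, where 32.0%, 29.9%, 29.1% and 33.6% of all genes rose and 29.3%, 30.6%, 28.5% and 28.8% fell. At 20 h in DMSO 14, 8, 9 and 2 rose and 3, 6, 5 and 7 fell, where 38.3%, 32.1%, 33.8% and 30.0% of all genes rose and 40.5%, 37.0%, 37.8% and 25.4% fell. EEF1B2, an elongation factor subunit, rose at 3 h by 0.52, 0.48, 0.34 and 0.75, whereas the initiation factor EIF4B was at −0.17, −0.51, −0.44 and 0.03. HNRNPA1, an RNA-binding protein with a TOP mRNA, fell at 20 h by log2 changes of −1.30, −1.01, −1.34 and −0.71. With ATRi at 20 h EEF1A1, the main elongation factor, changed by −0.38, −0.41, −0.31 and −0.30 and RPL36AL by −0.40, −0.48, −0.29 and −0.33.

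The 77 core genes were also set out by what they share beside their function. The large subunit genes rose by a median of 1.14 (46 of 46) and the small subunit genes by 1.29 (31 of 31) at 20 h in CSB_KO cells. Genes with a listed start of C and 4 pyrimidines had a median of 1.29 (n = 46) and those with another listed start 1.06 (n = 16), while at 3 h in WT these medians were 0.71 and 0.72. This split goes by the listed start base alone, and some of the others, RPL10A among them, hold a pyrimidine stretch just after it. Genes that hold small nucleolar RNAs had a median of 1.31 (n = 28) and the others 1.18 (n = 49) at 20 h in CSB_KO. Across the 77 core genes the change at 3 h in WT had a Pearson r of −0.04 with log10 span, −0.21 with log10 exonic length and −0.27 with the WT 0 h level, and the changes at 3 h in WT and in CSB_KO had an r of 0.06; genes of a library share its depth and are not independent. The WT change and the WT 0 h level also share the 0 h libraries, and both WT groups hold a library that stands apart. With the same level the 3 h changes of CSB_KO, STK19_KO1 and STK19_KO2 had an r of −0.35, −0.44 and −0.10. Over all 15470 tested genes Spearman's rho between span and change was −0.501 at 3 h in WT and −0.561 at 20 h in CSB_KO, and −0.123 and −0.117 within the genes of like span.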

How the data were processed

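Polyadenylated RNA was sequenced from 72 libraries made with a directional kit; per the submitters' processing notes STAR, RSEM and GRCh38 were used, and the deposited values are expected counts per gene, given as whole numbers. The sources used here do not state how the authors treated strand or multiply mapping reads; signal tracks were not used. The deposited genes include 572 with an ID and no symbol, which were kept. All libraries were fitted together with 1 coefficient per group in edgeR 4.0.16 (R 4.3.3; quasi-likelihood test, filterByExpr thresholds of 10 counts and 15 in total, TMM factors of 0.8565 to 1.125), with Benjamini-Hochberg adjustment over 15470 genes at 0.05. The STK19 comparisons between lines use the mean of both clones. Gene spans come from the deposited coordinates and exonic lengths from GENCODE release 29, the median over a gene's protein-coding transcripts. Alternatives were DESeq2 1.42.0, its size factors, library totals, mitochondrial mRNA scaling, no filter, only the lines compared, a replicate block, single replicates left out and the libraries that stand apart left out. The fit was tested on simulated data. The members and gene lists were chosen with earlier results of these data known. Named were, for the knockouts at 0 h, 3 h, 20 h and ATRi at each time, the 3 genes highest and lowest by mean log2 change over the lines, for the differences between lines the 2 highest and lowest, the 3 highest and lowest by level, the paralogues, RPL5, RPL11, RPS6, RPSA, RPLP0 and RPS3, and up to 2 each way per list; genes named in counts of all lines, RPL7A at 4 h, and RPS7 were chosen after their values were seen. Results for a few genes under this rule are not reported here.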

Additional observations from a re-analysis of the deposited data

Results flagged for a closer look

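Differences between lines in the response to UV or to ATRi that passed edgeR's test of the difference itself are listed here with their values. At 3 h the change from 0 h was smaller in CSB_KO than in WT for 5 ribosomal protein genes, RPL26L1 among them at −0.41 on the log2 scale. That share is under the 8.30% of all genes. On mitochondrial mRNA scaling the change was smaller for none and larger for 39, and RPL26L1 was at 0.21. In the STK19 knockouts it was smaller for 57 genes (17.1% of all genes; none on mitochondrial scaling), with −0.50 for RPL39 and −0.52 for RPS25. At 20 h in DMSO the change was larger in CSB_KO than in WT for 82 genes (30.9% of all genes), among them RPS29 at 1.43 and RPL7L1 at 0.14. On mitochondrial scaling it was larger for none and smaller for 5, and RPL7L1 was at −0.97 there and at −0.23 on library totals. The value of RPL3L, 2.48, rests on very few counts. In the STK19 knockouts it was larger for 75 genes (22.8% of all genes; none on mitochondrial scaling, where 14 were smaller), with 0.66 for RPS29, and smaller for RPL26L1 (−0.30) and RPL39L (−0.42). The effect of ATRi at 20 h was lower in CSB_KO than in WT for 25 genes (26.9% of all genes), with −1.08 for RPL22L1, and higher for RPS27L (0.35). In the STK19 knockouts it was lower for 8 genes (20.2% of all genes), RPL12 among them at −0.32. The share lower in CSB_KO is near that of all genes, and the share in the STK19 knockouts is under it. On mitochondrial scaling the effect was lower for 25 genes in CSB_KO, and none passed in the STK19 knockouts. On library totals it was lower for 9 and higher for 7 in CSB_KO. There it was lower for 3 and higher for 2 in the STK19 knockouts.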

How the results depend on the processing

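Scaling on mitochondrial mRNAs moved the most. The counts are those in the direction of the TMM result, with the median and any calls the other way in brackets. It left 1 gene with the same direction in the 3 knockouts at 0 h (median 0.073), 0 that rose in all 4 lines at 3 h (0.23) and at 4 h (0.19), 9 that rose in the 3 knockouts at 20 h (0.40) and 78 called in WT at 20 h (0.59). From 4 h to 20 h it gave 0 that rose in CSB_KO (−0.24; 33 fell) and 0 that fell in WT (0.68; 82 rose). For ATRi it gave 82 called in any line at 4 h (−0.026; 82 fell in CSB_KO, 40 rose in STK19_KO1) and 2 with the same direction at 20 h (−0.10). For the differences from WT it gave 0 for CSB_KO (0.45; 39 larger) and 0 for the STK19 knockouts (−0.037) at 3 h, 0 (0.094; 5 smaller) and 0 (−0.31; 14 smaller) at 20 h, and for ATRi at 20 h a median of −0.48 in CSB_KO and 0 genes (−0.0069) in the STK19 knockouts. Among named genes it reversed RPL4 (−0.11) and RPL3 (−0.15) in STK19_KO2, RPL3 (−0.082) and RPL7L1 (−0.44) in WT at 3 h, RPL26L1 in CSB_KO (−0.054) and WT (0.53) and RPL22L1 in WT (0.47) at 20 h, RPL22L1 with ATRi at 4 h in CSB_KO (−0.56), and the CSB_KO differences of RPL26L1 at 3 h (0.21), RPL22L1 (−0.83) and RPL7L1 (−0.97) at 20 h. Named genes were followed only in the comparisons that named them. RPS7, RPL23, RPL7A and RPL7L1, which fell in WT at 20 h, are therefore not listed for that comparison. No ribosomal protein gene fell there on mitochondrial scaling. Library totals reversed RPL7L1 in WT at 3 h (−0.072) and its CSB_KO difference at 20 h (−0.23). They gave medians of 0.37 at 4 h, 0.51 in the 3 knockouts at 20 h, 0.47 in CSB_KO and −0.35 in WT from 4 h to 20 h, 28 called in WT at 20 h (0.074), 2 for ATRi at 4 h, 2 in CSB_KO and 17 (−0.14) in the STK19 knockouts at 3 h, differences of 0.82 and 0.25 at 20 h, and 9 (−0.035) and 3 (−0.048) for ATRi. DESeq2 and its size factors in edgeR gave medians of 0.69 in the 3 knockouts at 20 h, 0.73 in CSB_KO from 4 h and 1.27 for the CSB_KO difference; DESeq2 called 2 for ATRi at 4 h and 9 for CSB_KO at 3 h. No filter gave 0.70 in the 3 knockouts, 10 for CSB_KO at 3 h, 0.42 for the STK19 difference at 20 h and 16 for its ATRi effect. Fitting only the lines compared gave 5 in WT at 20 h (−0.042), 3 for ATRi at 4 h and 2 for CSB_KO at 3 h. Without the libraries that stand apart the counts were 27 in WT at 20 h, 48 for ATRi at 4 h, 3 for CSB_KO at 3 h, and 48 and 38 for the ATRi effect. Leaving out replicates gave 43 to 81 genes at 3 h, 6 to 17 in WT at 20 h, 0 to 10 for ATRi at 4 h (median −0.085 to −0.036), 1 to 8 with the same direction for ATRi at 20 h, 0 to 1 for CSB_KO and 12 to 67 (−0.43 to −0.13) for the STK19 knockouts at 3 h, and 14 to 28 and 3 to 6 for the ATRi effect. Beyond the alternatives' own construction the cause was not tested.

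Same-numbered libraries deviated together in part: the median correlation was 0.525 for WT replicate 1, with 10 of 15 pairs over 0.1, and 0.234 for STK19_KO1 replicate 2, with 14 of 15, but no number passed 0.1 in every pair and the lowest value was −0.329, so that the numbers were not taken as pairs. The fit with a replicate block gave 8 genes for CSB_KO at 3 h and 1 for ATRi at 4 h in STK19_KO1 and moved no other count by over 1.5 times.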

Other observations

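Genes for making ribosomes, as distinct from those for their proteins, were counted with ATRi at 20 h as well. The counts are on the TMM scale and were not repeated on mitochondrial scaling. That scaling moves the median of all genes by −0.34, 0.17, −0.09 and −0.07 in CSB_KO, STK19_KO1, STK19_KO2 and WT. Of 40 ribosome biogenesis factors 28, 29 and 36 rose and 5, 5 and 1 fell in ATRi relative to DMSO in STK19_KO1, STK19_KO2 and WT cells. Among all genes 31.5%, 30.5% and 30.2% rose and 30.1%, 27.7% and 33.7% fell there. The median log2 changes of the factors were 0.34, 0.33 and 0.68, while in CSB_KO cells 9 rose and 10 fell (14.1% and 17.5% of all genes; median −0.05). The effect was lower in CSB_KO than in WT for 36 of the 40 and lower in the STK19 knockouts for 33, as it was for 26.9% and 20.2% of all genes. RRP12, a factor for export and maturation of the small subunit, was at 0.48, 1.28, 1.15 and 1.54 and NOP2, a ribosomal RNA methyltransferase, at 0.14, 0.72, 0.74 and 1.10 in CSB_KO, STK19_KO1, STK19_KO2 and WT, whereas nucleolin (NCL) was at −0.35, −0.35, −0.30 and −0.34. Of 15 genes of RNA polymerase I and its factors 4, 10, 11 and 14 rose and 5, 1, 1 and 1 fell. TAF1D, a subunit of the polymerase I promoter factor, was at 0.48, 1.32, 1.24 and 1.71, and UBTF, which binds ribosomal DNA, at −0.75, −0.74, −1.10 and −0.47.

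Without ATRi these lists moved in both directions on the TMM scale, and they were not recounted on mitochondrial scaling. That scaling moves the median of all genes by −0.37 in STK19_KO2 and −0.57 in WT at 3 h. At 20 h in DMSO it does so by −0.53 in CSB_KO and 0.57 in WT. At 3 h 19, 22, 19 and 24 of the 40 biogenesis factors rose and 13, 10, 8 and 7 fell, where 32.0%, 29.9%, 29.1% and 33.6% of all genes rose and 29.3%, 30.6%, 28.5% and 28.8% fell. EIF6 was at 0.60, 0.64, 0.58 and 0.56 and WDR43 at −1.83, −1.55, −1.52 and −1.30. At 20 h in DMSO 23, 22, 28 and 6 rose and 13, 5, 5 and 19 fell, where 38.3%, 32.1%, 33.8% and 30.0% of all genes rose and 40.5%, 37.0%, 37.8% and 25.4% fell. The kinase RIOK2 was at 1.47, 0.87, 0.93 and 0.26 and UTP20 at −2.09, −1.33, −1.25 and −0.26. POLR1C, a subunit shared by polymerases I and III, was at 1.88, 1.253, 1.18 and 0.22 at 20 h, and POLR1B, a large subunit of polymerase I, at −1.07, −0.76, −0.49 and −0.65 at 3 h. Of 11 regulators of ribosomal protein synthesis, MYC was at −1.998, −1.38, −1.58 and −1.74 and RPS6KB2, an S6 kinase, at 0.69, 0.68, 0.61 and 0.59 at 3 h, and RPTOR, a subunit of the mTOR complex, at −3.25, −1.92, −2.28 and −0.88 at 20 h. LARP1, which binds TOP mRNAs, was at −0.24, −0.29, −0.33 and −0.28 with ATRi at 20 h.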
